A study of Mus musculus with 24 samples.

Results

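The genes described here are 10 regulators of red cell formation and of the last steps of red cell maturation, measured in mouse blood after x-rays: the transcription factors Gata1, Tal1, Nfe2 and Klf1, the receptors Epor and Tfrc, and the maturation genes Bnip3l, Trim10, Trim58 and Cul4a. They were chosen by gene name among the non-control probes of an Agilent mouse expression array. All 10 of the 29711 genes on the array were found, through 16 of its 39429 probes, and all 10 were among the 15785 genes tested. The array was hybridised with RNA of whole blood from male C57BL/6J mice, drawn by cardiac puncture into PAXgene reagent 24 h after exposure. There were 9 arrays of Gadd45aKO mice given 7 Gy, 5 of Gadd45aKO mice given 0 Gy, 5 of Gadd45aWT mice given 7 Gy and 5 of Gadd45aWT mice given 0 Gy. The series text calls these independent experiments, but no label ties an array to an animal, so the p-values here describe spread among these arrays, some of which may be technical. No age is given in the labels.

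Red cells form in the marrow, where erythropoietin acts through its receptor Epor and where Gata1, Tal1 and Klf1 switch on the globin, heme and membrane genes, while the transferrin receptor Tfrc brings in the iron. The young cell then ejects its nucleus and enters the blood as a reticulocyte, which still carries RNA, clears its mitochondria through the mitophagy receptor Bnip3l and remodels its proteins through ubiquitin ligases. Gata1, Tal1 and Nfe2 also act in megakaryocytes, the cells that shed platelets, and platelets carry RNA too. In whole blood, fewer cells of a type and less RNA per cell cannot be told apart.

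Levels below are log2 of the processed signal after each array's 75th percentile was subtracted, so a level of 0 is that percentile of the 7803 probes well above background on every array. Levels of different probes are not comparable with each other. A change is a difference of 2 such levels, tested with limma across all genes with Benjamini-Hochberg adjustment, and a gene is called at an adjusted p under 0.05. The group names follow the labels, but Gadd45a itself was not called lower under the Gadd45aKO label at either dose. Its level was 0.02 ± 0.34 in Gadd45aKO blood at 7 Gy (SD, n = 9) and 0.52 ± 0.16 in Gadd45aKO blood at 0 Gy (n = 4), against -1.19 ± 0.32 in WT blood at 7 Gy and 0.67 ± 0.24 in WT blood at 0 Gy (n = 5 each). It was 1.21 higher in the Gadd45aKO samples than in WT at 7 Gy, with no overlap (adjusted p = 4.76e-05), and differed by -0.15 at 0 Gy (adjusted p = 0.853). Whether its probe lies in the deleted part of the gene is not known here, so the animals are called KO-labelled throughout, and each difference between them and WT rests on that label.

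Some arrays stood apart from the rest of their group. KO-labelled replicates 1 and 4 at 0 Gy differed by 1.07 times the spread between repeat spots of one array and were counted as 1 sample, which gives n = 4 for that group. KO-labelled replicates 1, 2 and 4 at 7 Gy, and WT replicates 1 and 2 at 7 Gy, differed by under 1.5 times that spread and were kept apart. KO-labelled replicate 3 at 7 Gy, KO-labelled replicate 2 at 0 Gy and WT replicate 1 at 0 Gy had repeat spots that varied by over 10%. The share of probes well above background lay between 25.9% and 51.4%. In WT blood at 7 Gy, replicates 3, 4 and 5 had mean levels of 1.16, 1.16 and 1.08 over 11 hepatocyte genes, while replicates 1 and 2 had -2.41 and -2.43. The highest mean in any other group was -2.30. In KO-labelled blood at 0 Gy, replicates 2 and 5 had hepatocyte means of -4.32 and -3.84, above every unirradiated WT array (highest -6.31), while the others had -7.01 (replicates 1 and 4 averaged) and -6.43. Results of the 10 members that change without these 3 WT arrays, or without these 2 KO-labelled arrays, are given both ways. Those alternatives were added after the data were seen. All other genes are given from the fit of all arrays only, so whether their calls depend on these arrays was not tested. Each replicate number from 1 to 5 is 1 slide in every group, and KO-labelled replicates 6 to 9 at 7 Gy share a sixth slide.

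The probes of the transcription factors and receptors lie, by the mm9 positions in the array files, at chrX:7536392-7536451 on the minus strand (Gata1), chr4:114744219-114744278 on the plus strand (Tal1), chr15:103078838-103078897 on the minus strand (Nfe2), chr8:87428881-87428940 on the plus strand (Klf1), chr9:21763422-21763481 on the minus strand (Epor) and chr16:32620470-32620529 on the plus strand (Tfrc). Those of the maturation genes lie at chr14:67606210-67606269 on the minus strand (Bnip3l), chr17:37014159-37014218 on the plus strand (Trim10), chr11:58465809-58465868 on the plus strand (Trim58) and chr8:13147326-13147385 on the plus strand (Cul4a). Each is placed by the files in a transcript of its gene, and no exon annotation of that build was used here.

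Promoters of 3 members show which letters known for the binding of these factors stand before a member that rose in irradiated KO-labelled blood (Epor and Gata1) and before one that fell there (Trim10). They are the 250 bases before the start in RefSeq's GRCm38.p6 annotation, 5′ to 3′ along the gene: chr9:21963577-21963826 (minus strand) for Epor, chrX:7967911-7968160 (minus strand) for Gata1 and chr17:36869324-36869573 (plus strand) for Trim10. Capitals mark matches on either strand to AGATAA, a form of the motif of GATA factors, CCNCNCCC, that of Klf1, TGAGTCA, the core of that of Nfe2, and CAGATG, an E-box form bound by Tal1 with its partners. A match on the other strand appears as its reverse complement.
Epor: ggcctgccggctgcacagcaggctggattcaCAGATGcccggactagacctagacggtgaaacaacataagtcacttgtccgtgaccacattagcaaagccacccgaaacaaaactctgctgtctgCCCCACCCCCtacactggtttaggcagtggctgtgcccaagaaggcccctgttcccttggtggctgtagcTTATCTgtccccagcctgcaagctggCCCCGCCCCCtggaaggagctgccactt
Gata1: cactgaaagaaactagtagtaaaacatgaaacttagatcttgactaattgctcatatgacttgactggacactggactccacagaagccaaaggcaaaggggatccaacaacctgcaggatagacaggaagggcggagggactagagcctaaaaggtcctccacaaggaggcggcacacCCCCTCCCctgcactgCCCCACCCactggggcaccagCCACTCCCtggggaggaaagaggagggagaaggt
Trim10: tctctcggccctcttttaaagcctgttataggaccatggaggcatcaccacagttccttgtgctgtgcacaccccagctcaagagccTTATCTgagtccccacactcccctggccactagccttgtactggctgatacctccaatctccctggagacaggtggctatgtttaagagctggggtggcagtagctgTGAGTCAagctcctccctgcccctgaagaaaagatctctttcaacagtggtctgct

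Promoters were found in the table for 8 of the 10 members. AGATAA stood before 3 of these 8 (Tal1, Epor and Trim10) and before 11.4% of 27025 genes, counting a gene with several promoters as a match if any of them matched. In the same count, CCNCNCCC stood before 4 members (Gata1, Tal1, Epor and Tfrc) and before 48.5% of all genes. CAGATG stood before 2 (Klf1 and Epor), against 16.3% of all genes, and TGAGTCA before Trim10, against 5.16%. No match to any of these motifs stood before Trim58 or Cul4a, which also fell in irradiated KO-labelled blood. Over 32851 single promoters the shares were 9.99% for AGATAA, 45.9% for CCNCNCCC, 14.4% for CAGATG and 4.46% for TGAGTCA. Overlapping matches were counted, as in Epor, where 2 pairs of CCNCNCCC overlap. In Epor the AGATAA match lay 54 bases before the start, and in Trim10 it lay 163 bases before it. A match is a description of the letters, not a bound site.

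After 7 Gy, the members moved in 2 directions. By the brightest probe of each gene, Epor, Tal1, Gata1, Tfrc and Nfe2 rose in KO-labelled blood, Trim58, Trim10 and Cul4a fell, and Klf1 and Bnip3l were not called. These 8 called members stand beside 46.9% of all genes tested that were called in that comparison, 12.4% higher and 34.6% lower. Another Tfrc probe was called lower there, and a dimmer Cul4a probe was not called. In WT blood, Epor rose, while Bnip3l, Trim10, Trim58 and Cul4a fell, against 23.6% of all genes called (10% higher and 13.6% lower). The median change of the 10 members was 1.02 in KO-labelled blood, where that of all genes was -0.26, and -0.28 in WT blood, where that of all genes was -0.05. The groups at 7 Gy and 0 Gy did not overlap for 6 members in KO-labelled blood (4 higher and 2 lower), where 24.5% of all genes did not (5.04% higher and 19.5% lower), and for 7 members in WT blood (2 higher and 5 lower), where 28.5% did not (11.7% higher and 16.8% lower).

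**Figure D1:**
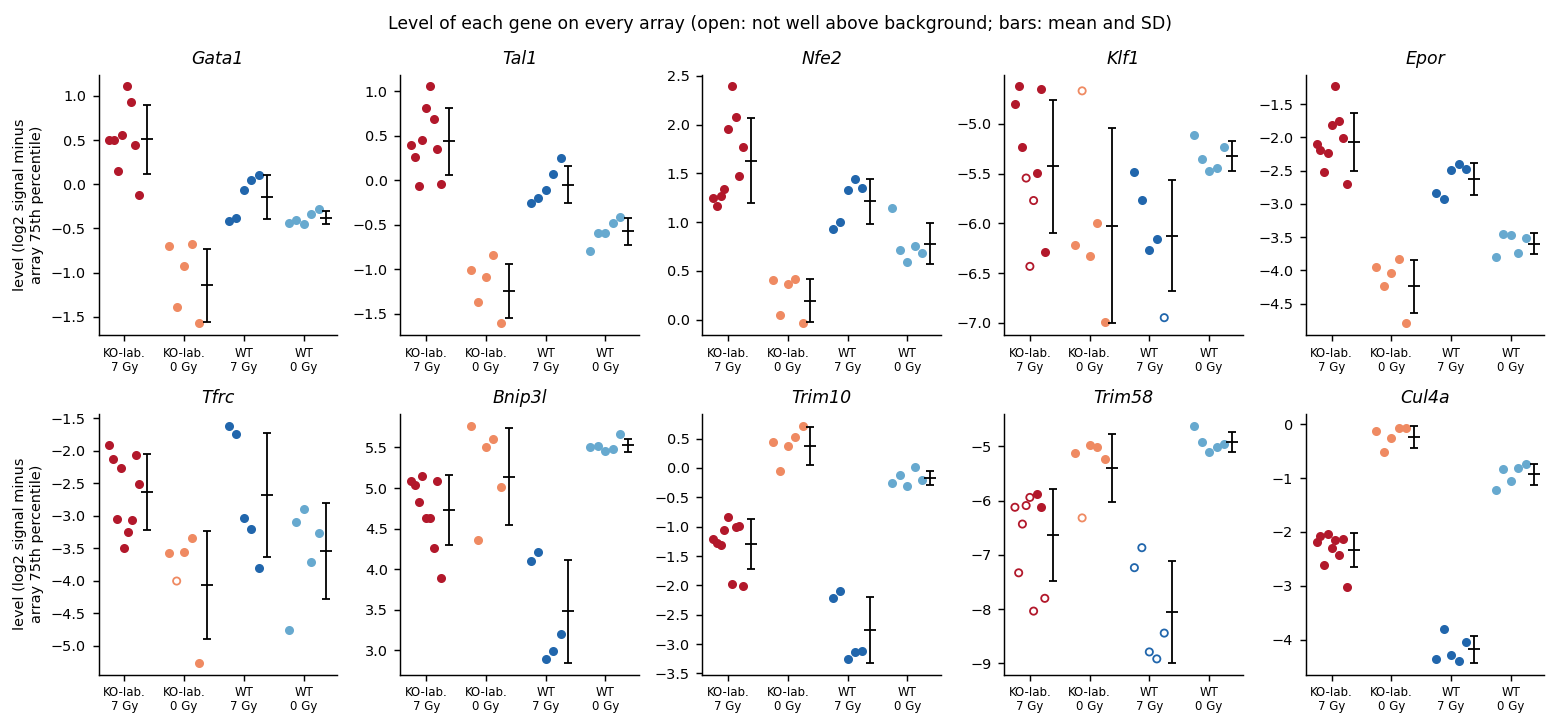
Level of each member on every array (log2 signal minus the array's 75th percentile, vertical axis) in the 4 groups of genotype label and dose; bars give the mean and SD and open points mark spots not well above background. Gata1, Tal1, Nfe2 and Epor are highest in KO-labelled blood at 7 Gy on average, and Trim10 and Cul4a lie lowest in WT blood at 7 Gy.

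Gata1 encodes the zinc finger factor that drives both the erythroid and the megakaryocytic programme. Its level lay between -0.12 and 1.11 (median 0.50, 8 arrays) in KO-labelled blood at 7 Gy, while it was -0.69, -1.39, -0.92 and -1.57 in KO-labelled blood at 0 Gy. In WT blood it was -0.42, -0.39, -0.07, 0.05 and 0.11 at 7 Gy and -0.44, -0.41, -0.44, -0.33 and -0.28 at 0 Gy. Replicates 2 and 5 were the lowest at 0 Gy in KO-labelled blood, and all irradiated KO-labelled arrays with a value were above all unirradiated ones, while the WT groups overlapped. The spot of KO-labelled replicate 5 at 7 Gy was marked as an outlier by the scanner software and is left out. Gata1 rose by 1.65 ± 0.21 (SE, adjusted p = 1.79e-06) in KO-labelled blood, and its change of 0.23 ± 0.21 in WT blood was not called (adjusted p = 0.499).

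Tal1 is the basic helix-loop-helix factor that binds DNA together with Gata1. It had levels of -0.06 to 1.05 (median 0.40) in KO-labelled blood at 7 Gy and of -0.92, -1.37, -1.08 and -1.61 in KO-labelled blood at 0 Gy. The WT levels were -0.26, -0.20, -0.11, 0.07 and 0.25 at 7 Gy and -0.80, -0.60, -0.60, -0.48 and -0.41 at 0 Gy. Neither pair of groups overlapped. Tal1 rose by 1.68 ± 0.19 in KO-labelled blood (adjusted p = 3.62e-07), while the change of 0.53 ± 0.20 in WT blood missed the threshold (adjusted p = 0.0594).

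Nfe2, the larger subunit of the NF-E2 factor, is needed for platelet release and acts at globin genes. In KO-labelled blood its level was 1.16 to 2.39 (median 1.47) at 7 Gy and 0.41, 0.05, 0.36 and -0.04 at 0 Gy, with no overlap. WT blood had 0.93, 1.004, 1.32, 1.44 and 1.35 at 7 Gy, against 1.14, 0.72, 0.60, 0.76 and 0.68 at 0 Gy, where replicate 1 at 0 Gy lay above the lowest irradiated arrays. The change was 1.43 ± 0.21 (adjusted p = 7.9e-06) in KO-labelled blood and 0.43 ± 0.22 (adjusted p = 0.167) in WT blood.

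Klf1, the factor that activates the adult beta-globin gene, was near the limit of detection. In KO-labelled blood its probe was well above background on 6 of 9 arrays at 7 Gy and on 4 of 5 at 0 Gy, and in WT blood on 4 of 5 at 7 Gy and 5 of 5 at 0 Gy. The levels were -6.43 to -4.62 (median -5.49) in KO-labelled blood at 7 Gy and -6.11, -4.67, -6.33 and -6.99 at 0 Gy. In WT blood they were -5.49, -5.76, -6.27, -6.16 and -6.95 at 7 Gy and -5.11, -5.35, -5.48, -5.44 and -5.23 at 0 Gy. All irradiated WT arrays lay below all unirradiated ones, while the KO-labelled groups overlapped. Neither change was called: 0.60 ± 0.37 in KO-labelled blood (adjusted p = 0.194) and -0.80 ± 0.39 in WT blood (adjusted p = 0.151).

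Epor, the erythropoietin receptor, was called in both genotypes. In KO-labelled blood it had levels of -2.71 to -1.23 (median -2.10) at 7 Gy, all above the -3.89, -4.24, -4.04 and -4.80 at 0 Gy. In WT blood it had -2.83, -2.92, -2.50, -2.40 and -2.48 at 7 Gy, again all above the -3.81, -3.46, -3.47, -3.74 and -3.51 at 0 Gy. The rise was 2.18 ± 0.22 in KO-labelled blood (adjusted p = 6.81e-08) and 0.97 ± 0.23 in WT blood (adjusted p = 0.00299). Without the 3 WT arrays high in hepatocyte genes, the WT change was 0.72 and was not called (adjusted p = 0.175).

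Tfrc, the receptor that carries transferrin-bound iron into the cell, gave different answers by probe. The brightest probe, which starts at base 1228 of the transcript, had levels of -3.50 to -1.91 (median -2.51) in KO-labelled blood at 7 Gy and -3.46, -4.00, -3.55 and -5.26 at 0 Gy. In WT blood it had -1.61, -1.74, -3.03, -3.20 and -3.81 at 7 Gy and -4.75, -3.10, -2.89, -3.71 and -3.26 at 0 Gy. WT replicates 1 and 2 were the high ones at 7 Gy, and both pairs of groups overlapped. The change was 1.43 ± 0.43 in KO-labelled blood (adjusted p = 0.00842) and 0.86 ± 0.45 in WT blood (adjusted p = 0.187). Without KO-labelled replicate 5 at 0 Gy the first was not called (adjusted p = 0.0672), nor without replicates 2 and 5 (0.87, adjusted p = 0.227), and without the 3 hepatocyte-high arrays the WT change was 1.86 (adjusted p = 0.0273).

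A probe that starts at base 4288 of Tfrc went the other way in KO-labelled blood. It averaged -5.46 in KO-labelled blood at 7 Gy and -4.71 at 0 Gy, a change of -0.75 ± 0.25 when every probe was tested (adjusted p = 0.0158). In WT blood it averaged -6.08 at 7 Gy and -5.52 at 0 Gy, a change of -0.56 that was not called (adjusted p = 0.133). The third Tfrc probe was not well above background on any array. With the probes averaged, the gene was not called in KO-labelled blood (0.34, adjusted p = 0.344), so the direction of Tfrc depends on the probe.

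**Figure D2:**
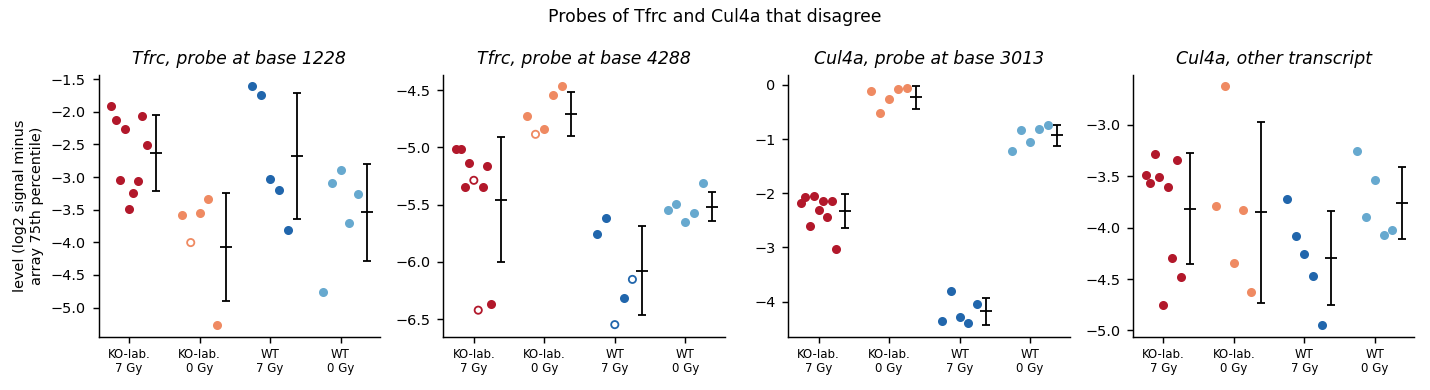
Level of 2 probes each of Tfrc and Cul4a on every array (log2 signal minus the array's 75th percentile, each panel with its own vertical scale), by group, with mean and SD; open points are not well above background. The Tfrc probe at base 1228 averages -2.63 at 7 Gy against -4.07 at 0 Gy in KO-labelled blood, while the probe at base 4288 averages -5.46 against -4.71.

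Bnip3l encodes the mitophagy receptor through which reticulocytes lose their mitochondria, and it was not called in KO-labelled blood. There it had levels of 3.89 to 5.15 (median 4.82) at 7 Gy and of 5.68, 4.36, 5.51 and 5.01 at 0 Gy, which overlapped. In WT blood the levels were 4.102, 4.22, 2.89, 2.99 and 3.20 at 7 Gy, all below the 5.50, 5.52, 5.45, 5.48 and 5.66 at 0 Gy. The 3 hepatocyte-high arrays were the lowest. The change was -0.41 ± 0.28 in KO-labelled blood (adjusted p = 0.239), and in WT blood it fell by 2.04 ± 0.29 (adjusted p = 1.48e-05). In KO-labelled blood it was called lower with normexp background correction (-0.98, adjusted p = 5.32e-06), quantile normalization (-0.91, adjusted p = 5.4e-05) and array weights (-0.57, adjusted p = 0.00851). All 4 Bnip3l probes gave a WT change between -2.37 and -1.95 and a KO-labelled change between -0.58 and -0.18.

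Trim10 is a tripartite-motif protein known from terminal erythroid differentiation in mouse cells. Its level was -2.02 to -0.83 (median -1.21) in KO-labelled blood at 7 Gy, against 0.48, -0.06, 0.37 and 0.72 in KO-labelled blood at 0 Gy. In WT blood it was -2.21, -2.09, -3.25, -3.13 and -3.11 at 7 Gy, against -0.25, -0.12, -0.30, 0.02 and -0.21 at 0 Gy. No irradiated array reached an unirradiated one of its genotype. Trim10 fell by 1.68 ± 0.24 in KO-labelled blood (adjusted p = 8.66e-06) and by 2.59 ± 0.26 in WT blood (adjusted p = 9.64e-08).

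Trim58 is an erythroid E3 ubiquitin ligase subunit that promotes enucleation by degrading dynein. Its probe was not well above background on any of the 5 WT arrays at 7 Gy, and was so on 2 of 9 KO-labelled arrays at 7 Gy. The levels were -8.04 to -5.88 (median -6.12) in KO-labelled blood at 7 Gy and -5.06, -6.32, -4.97 and -5.22 at 0 Gy, where replicate 2 was not well above background. In WT blood the probe read -7.24, -6.87, -8.79, -8.92 and -8.44 at 7 Gy, below background, and -4.62, -4.92, -5.10, -5.01 and -4.96 at 0 Gy. The irradiated WT samples were at least 3.70-fold lower, with the lowest signal well above background on each array taken as the limit. This bound was not tested itself. The fall was called by the limma fit on the readings as they were (adjusted p = 1.59e-05). In KO-labelled blood Trim58 fell by 1.24 ± 0.43 with overlapping groups (adjusted p = 0.0197), and most of its irradiated levels there are below background. The change was not called with normexp background correction (-0.16, adjusted p = 0.159), quantile normalization (-0.63, adjusted p = 0.375), the slide as a block (-1.06, adjusted p = 0.0529), median scaling (-0.997, adjusted p = 0.0652) or the percentile over all probes (-0.92, adjusted p = 0.088).

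Cul4a is the scaffold of cullin-RING ubiquitin ligases. Its level was -3.02 to -2.05 (median -2.19) in KO-labelled blood at 7 Gy and -0.10, -0.51, -0.25 and -0.06 in KO-labelled blood at 0 Gy. In WT blood it was -4.36, -3.80, -4.29, -4.40 and -4.05 at 7 Gy and -1.21, -0.83, -1.06, -0.81 and -0.74 at 0 Gy. The groups at 7 Gy and 0 Gy did not overlap in either genotype, and the irradiated WT arrays were all below the irradiated KO-labelled ones. Cul4a fell by 2.10 ± 0.18 in KO-labelled blood (adjusted p = 5.72e-09) and its change in WT blood was -3.25 ± 0.18 (adjusted p = 8.9e-11). A dimmer Cul4a probe, placed in another transcript, was not called in either (0.04 in KO-labelled blood, adjusted p = 0.939, and -0.54 in WT blood, adjusted p = 0.299), so these falls belong to the brightest probe only.

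The design allows the response in KO-labelled blood to be compared directly with that in WT blood. By the brightest probe of each gene, all 10 differences of the responses were positive. Of these, 7 were called, all higher, where 15.1% of all genes were called (3.19% higher and 11.9% lower). The called members were Bnip3l (1.63 ± 0.40, adjusted p = 0.0108), Gata1 (1.42 ± 0.30, adjusted p = 0.00485), Epor (1.21 ± 0.31, adjusted p = 0.0141), Tal1 (1.15 ± 0.27, adjusted p = 0.0091), Cul4a (1.15 ± 0.25, adjusted p = 0.00629), Nfe2 (1.001 ± 0.30, adjusted p = 0.0281) and Trim58 (adjusted p = 0.0435). The fitted value of Trim58, 1.88, is no measured difference, since the probe was below background on 5 of 5 WT arrays and 7 of 9 KO-labelled arrays at 7 Gy. Klf1 (1.40, adjusted p = 0.0778), Trim10 (0.91, adjusted p = 0.0822) and Tfrc (0.57, adjusted p = 0.559) were not called. For Gata1, Tal1, Nfe2 and Epor a positive difference means a larger rise in KO-labelled blood, and for the brightest Cul4a probe a smaller fall. The dimmer Cul4a probe was not called for the difference when every probe was tested (0.58, adjusted p = 0.429). The Tfrc probe at base 4288 had a difference of -0.19 (adjusted p = 0.75). Bnip3l fell in WT blood and was not called in KO-labelled blood. Without the 3 hepatocyte-high WT arrays, 4 members were called: Gata1 (1.68), Epor (1.46), Tal1 (1.33) and Nfe2 (1.24). That fit called 118 of all 15785 genes higher and 845 lower. Bnip3l (0.95, adjusted p = 0.173), Cul4a (1.05, adjusted p = 0.0526) and Trim58 (0.88, adjusted p = 0.455) were then not called. The value of Bnip3l moved by over 1.5 times, and that of Cul4a moved little. Without KO-labelled replicates 2 and 5 at 0 Gy, which leaves 2 samples in that group, Cul4a was the 1 member called (1.09, adjusted p = 0.0491). Of all 15785 genes, 39 were called higher without these 2 replicates and 424 lower. Gata1 (1.08, adjusted p = 0.0687), Tal1 (0.91, adjusted p = 0.109), Epor (0.93, adjusted p = 0.143), Nfe2 (0.81, adjusted p = 0.208), Bnip3l (1.18, adjusted p = 0.134) and Trim58 (1.505, adjusted p = 0.248) were then not called. Without the 3 arrays of uneven repeat spots, Bnip3l (1.37, adjusted p = 0.0509), Nfe2 (0.91, adjusted p = 0.0815) and Trim58 (1.47, adjusted p = 0.172) were not called and Klf1 was (1.78, adjusted p = 0.0413). With the slide as a block, Klf1 (1.52, adjusted p = 0.0144) and Trim10 (1.05, adjusted p = 0.0349) were called and Nfe2 was not (0.72, adjusted p = 0.0518). With normexp background correction, Nfe2 (0.86, adjusted p = 0.0902), Trim58 (0.34, adjusted p = 0.101) and Cul4a (0.41, adjusted p = 0.119) were not called. The median difference of the 10 members was 1.18, and that of all genes was -0.25.

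**Figure D3:**
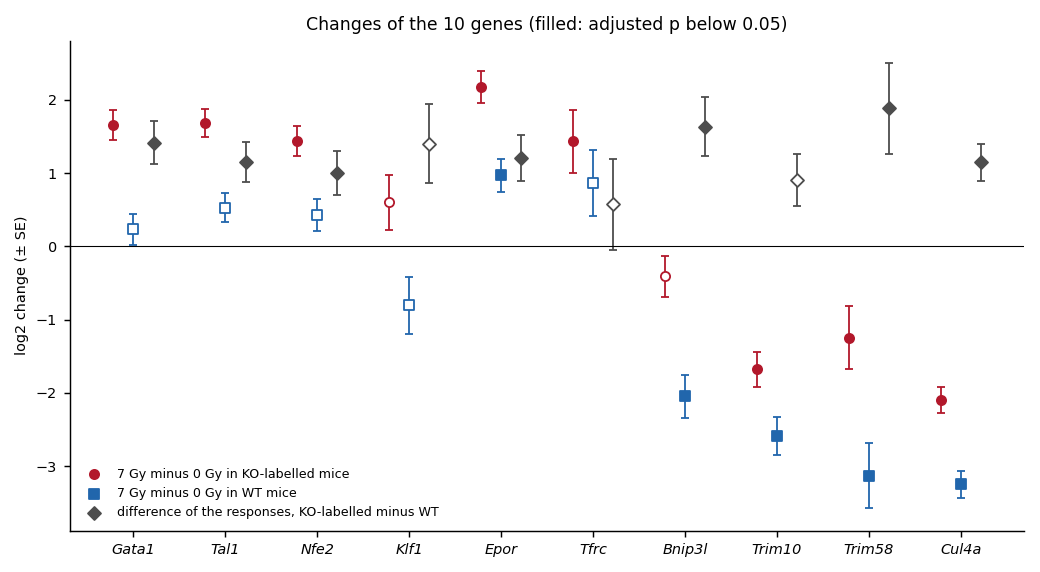
Log2 change of each member with its standard error: 7 Gy minus 0 Gy in KO-labelled blood, the same in WT blood, and the difference of both responses, KO-labelled minus WT; filled symbols have an adjusted p under 0.05. Every difference of the responses lies above 0, and 7 of them are filled.

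In unirradiated blood no member was called between the genotypes by limma, where 0.291% of all genes were called (0.209% higher and 0.0824% lower). Cul4a differed by 0.70 (adjusted p = 0.167), Gata1 by -0.76 (adjusted p = 0.215), Tal1 by -0.67 (adjusted p = 0.251), Epor by -0.65 (adjusted p = 0.384) and Nfe2 by -0.58 (adjusted p = 0.417). For these 5 genes the KO-labelled and WT samples did not overlap at 0 Gy, where 10.6% of all genes did not (6.91% higher and 3.73% lower). Each had 1 sign on all 5 slides, as did Trim10, whose groups overlapped. The share of all genes with 1 sign on all slides was not counted, and the KO-labelled pair averaged in the fit stood as separate slides there. Without KO-labelled replicates 2 and 5 these differences were -0.43 for Gata1, -0.43 for Tal1, -0.37 for Epor, -0.39 for Nfe2 and 0.76 for Cul4a. The dimmer Cul4a probe differed by -0.09 at 0 Gy when every probe was tested (adjusted p = 0.951). The positive differences of the responses of Gata1, Tal1, Nfe2 and Epor are sums of these differences at 0 Gy, with the sign turned, and those at 7 Gy.

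At 7 Gy, 6 members were called higher in KO-labelled blood than in WT blood, against 22.4% of all genes called (4.58% higher and 17.8% lower). They were Cul4a (1.85 ± 0.16, adjusted p = 3.56e-07), Trim10 (1.46 ± 0.23, adjusted p = 8.91e-05), Trim58 (1.41 ± 0.40, adjusted p = 0.0125), Bnip3l (1.25 ± 0.26, adjusted p = 0.0013), Gata1 (0.65 ± 0.19, adjusted p = 0.0173) and Epor (0.56 ± 0.20, adjusted p = 0.0478). Trim58 was below background in all WT samples at 7 Gy and well above it on only 2 of 9 KO-labelled arrays. Its fitted 1.41 is therefore no measured difference, and no smallest size can be given. The genotypes did not overlap at 7 Gy for Cul4a and Trim10, against 6.04% of all genes (0.9% higher and 5.14% lower). Tal1 (0.48, adjusted p = 0.0507), Klf1 (0.70, adjusted p = 0.152), Nfe2 (0.42, adjusted p = 0.123) and Tfrc (0.05, adjusted p = 0.95) were not called. Nor was the dimmer Cul4a probe when every probe was tested (0.48, adjusted p = 0.282). Without the 3 hepatocyte-high WT arrays only Cul4a (1.75) and Gata1 (0.91) were called, while Trim10 (0.86, adjusted p = 0.0665), Bnip3l (0.57, adjusted p = 0.312), Trim58 (0.41, adjusted p = 0.725) and Epor (0.81, adjusted p = 0.0977) were not. That fit called 125 of all 15785 genes higher and 995 lower. Without KO-labelled replicates 2 and 5 at 0 Gy, Tal1 was called as well (adjusted p = 0.0452). With the slide as a block, Gata1 (adjusted p = 0.0642) and Epor (adjusted p = 0.148) were not called and Klf1 was (adjusted p = 0.0481). When the arrays that differed by under 1.5 times the repeat-spot spread were averaged, Gata1 (0.58, adjusted p = 0.0969) and Epor (0.53, adjusted p = 0.146) were not called.

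Within slides, where each has 1 array of each group, the KO-labelled response kept 1 sign on all slides for 9 members: up for Gata1 (4 slides), Tal1, Nfe2, Klf1, Epor and Tfrc, and down for Trim10, Trim58 and Cul4a. Bnip3l was lower on 4 of 5. In WT blood, 8 members kept 1 sign on all 5 slides: Gata1, Tal1 and Epor were higher, and Klf1, Bnip3l, Trim10, Trim58 and Cul4a were lower. How many of all genes did so was not counted for either response, so these counts have no background to stand against. Unirradiated KO-labelled replicates 1 and 4, averaged in the fit, enter here as separate slides. Klf1 was dim, and Trim58 was below background on most irradiated arrays. The sign of Tfrc is that of its brightest probe, and another probe fell in KO-labelled blood.

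Markers of platelets and of red cells also changed after 7 Gy, and the members followed them only in part. Of 18 platelet and megakaryocyte markers, 17 rose in KO-labelled blood (median change 1.76) and 12 rose in WT blood (median 0.87), with none lower. The shares of all genes that rose were 12.4% in KO-labelled blood and 10% in WT blood. The von Willebrand factor gene Vwf changed by 2.10 in KO-labelled blood and 1.01 in WT blood, and Itga2b, which encodes the platelet integrin subunit CD41, by 2.04 and 0.99. The mean level of the 18 markers was 1.53 to 2.80 in KO-labelled blood at 7 Gy and -0.27 to 0.61 at 0 Gy, and 1.35 to 1.77 in WT blood at 7 Gy and 0.21 to 0.81 at 0 Gy. Relative to that mean on the same array, Gata1 changed by -0.04 and Tal1 by -0.05 in KO-labelled blood, with overlapping groups. Relative to it, they were lower in irradiated WT blood, by -0.68 for Gata1 and -0.39 for Tal1, with no overlap. Relative to it, Epor changed by 0.45 in KO-labelled blood and 0.06 in WT blood, with overlap in both. Nfe2 changed by -0.29 in KO-labelled blood, with overlap, and by -0.48 in WT blood, with no overlap. The part of platelet RNA in the changes of these genes was not tested.

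Of 16 genes that define red cells, 5 rose and 9 fell in KO-labelled blood (median -0.81), and 9 fell in WT blood with none higher (median -1.57). The shares of all genes were 12.4% higher and 34.6% lower in KO-labelled blood, and 10% and 13.6% in WT blood. The band 3 gene Slc4a1 changed by -1.44 in KO-labelled blood and -3.33 in WT blood, both called. All 4 globin genes in the list rose in KO-labelled blood, by 0.87 (Hba-a1), 1.29 (Hba-a2), 1.49 (Hbb-b1) and 1.07 (Hbb-b2), but their near-identical copies can share signal. The spectrin-anchoring gene Ank1 was not well above background in any WT sample at 7 Gy. The mean level of the list was -0.51 to 0.51 in KO-labelled blood at 7 Gy and 0.24 to 0.96 at 0 Gy. In WT blood at 7 Gy it was -0.16 and -0.19 in replicates 1 and 2 and -1.18, -1.19 and -1.16 in the hepatocyte-high replicates, and it was 0.65 to 0.86 at 0 Gy. Relative to it, Bnip3l changed by 0.12 in KO-labelled blood, with overlap, and was lower in WT blood, by -0.53. Cul4a was lower relative to it in both, by -1.57 in KO-labelled blood and -1.73 in WT blood, and so was Trim10, by -1.15 and -1.07, each with no overlap. The part of the shift of these red cell genes in the changes of the members was not tested.

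**Figure D4:**
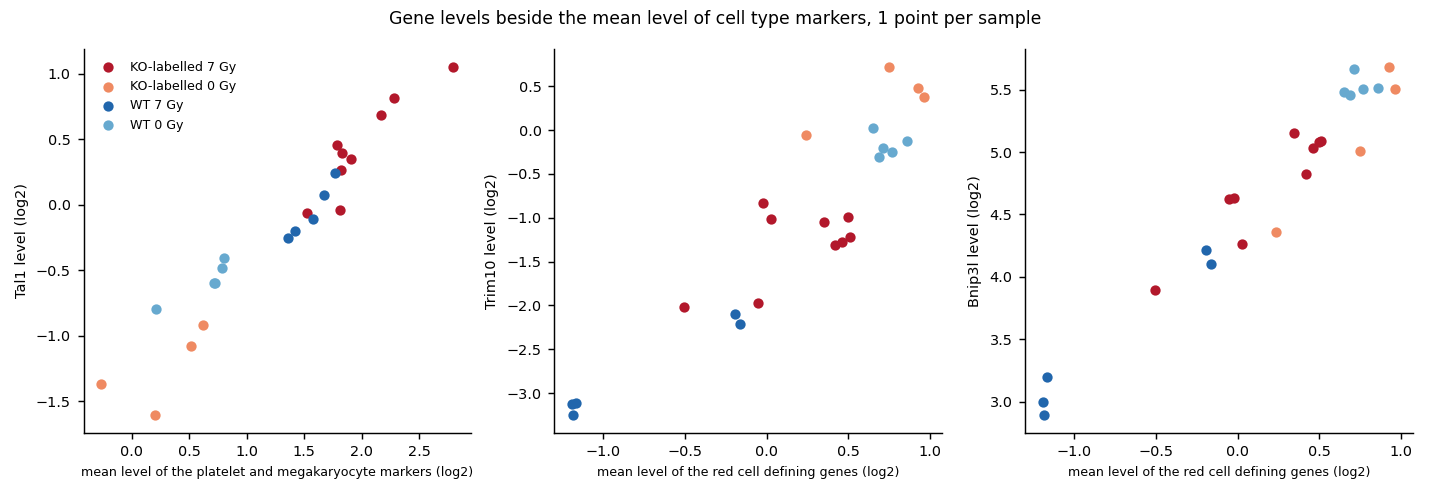
Level of Tal1 against the mean level of the 18 platelet markers, and of Trim10 and Bnip3l against that of the 16 red cell genes (all log2 signal minus the array's 75th percentile), with 1 point per sample coloured by group. The platelet means are 1.35 or higher in all irradiated samples, and WT replicates 3, 4 and 5 at 7 Gy have the lowest red cell means, -1.19 to -1.16, with Bnip3l at 2.89 to 3.20.

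Other genes of these pathways were counted from lists chosen for their role, with earlier results of these data known. Their calls were not repeated without the hepatocyte-high arrays. Beside these counts, 12.4% of all genes were called higher and 34.6% lower in KO-labelled blood (median -0.26). In WT blood 10% of all genes were higher and 13.6% lower (median -0.05). Of 18 other erythroid transcription factors, 4 rose and 9 fell in KO-labelled blood (median -0.58), and 1 rose and 6 fell in WT blood (median -0.39). Gfi1b, a repressor needed in both red cells and megakaryocytes, changed by 1.95 in KO-labelled blood and 1.11 in WT blood, and its difference of the responses was called (0.84). Gata2, the GATA factor of early progenitors, rose by 1.74 in KO-labelled blood, and its difference was called too (1.16). Lmo2, the adaptor that joins Gata1 and Tal1 in a complex, changed by -0.57 in KO-labelled blood (not called) and fell by 1.18 in WT blood. E2f2, which takes part in the last erythroid divisions, fell by 1.29 in KO-labelled blood and changed by -1.93 in WT blood (called). Bcl11a, the fetal globin repressor that B cells also express, changed by -4.99 in KO-labelled blood and -4.86 in WT blood, both called, and all 10 B cell markers fell in both.

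Among 12 tested genes of erythropoietin signalling, 1 rose and 5 fell in KO-labelled blood (median -0.04), and 1 rose and 1 fell in WT blood (median -0.16). The gene that rose in KO-labelled blood was Sh2b3 (0.63), which encodes the adaptor Lnk that restrains Jak2. Those that fell included the phosphatase gene Ptpn6 (-1.61), the receptor's signal carrier Stat5a (-1.14) and the feedback inhibitor Socs3 (-1.08). The Stat5 target Cish rose by 2.67 in WT blood and changed by 0.78 in KO-labelled blood (not called), a called difference of -1.89. The survival gene Bcl2l1 changed by -0.96 in KO-labelled blood and -2.06 in WT blood, both called. Jak2, the kinase bound to Epor, was not called in either, with changes of 0.02 and 0.54. Of 11 tested iron genes, 2 rose and 3 fell in KO-labelled blood (median 0.25), and 2 rose and 2 fell in WT blood (median 0.25). Beside both lists stand 12.4% of all genes higher and 34.6% lower in KO-labelled blood, and 10% and 13.6% in WT blood. Whether either list departs from these shares was not tested. Ncoa4, the receptor for ferritin breakdown, changed by -0.15 in KO-labelled blood (not called) and fell by 1.94 in WT blood, a called difference of 1.79. Slc40a1, the iron exporter ferroportin, fell by 1.43 in KO-labelled blood and was 0.56 in WT blood (not called), a called difference of -1.99. The iron carrier gene Trf, which hepatocytes express strongly, rose by 1.58 in KO-labelled blood and 3.39 in WT blood, where hepatocyte genes were high.

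Of 16 ubiquitin enzymes of red cell maturation none rose, 9 fell in KO-labelled blood (median -1.02) and 8 fell in WT blood (median -0.55). The shares of all genes that fell were 34.6% in KO-labelled blood and 13.6% in WT blood. Ube2o, which ubiquitinates ribosomal proteins in reticulocytes, changed by -1.28 in KO-labelled blood and -2.51 in WT blood, and Ube2h, an erythroid ubiquitin-conjugating enzyme, by -1.62 and -3.002, all called. The paralog Cul4b fell by 1.19 in KO-labelled blood and was -0.24 in WT blood (not called). Rbx1, the RING subunit of these ligases, was -0.20 and -0.05, not called in either. In the difference of the responses 6 of the 16 were higher and 2 lower, and Ube2h (1.38), Ube2o (1.23) and Usp15 (1.39) were among the higher ones. For that difference 3.19% of all genes were higher and 11.9% lower.

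Of 15 tested genes of the late reticulocyte, 1 rose and 8 fell in KO-labelled blood (median -0.66), and 1 rose and 11 fell in WT blood (median -1.29). The shares of all genes were 12.4% higher and 34.6% lower in KO-labelled blood, and 10% and 13.6% in WT blood. Epb42, which encodes a protein of the red cell membrane skeleton, changed by -2.72 in KO-labelled blood and -3.62 in WT blood, both called. The mitochondrial iron importer gene Slc25a37 fell by 2.64 in WT blood and was -0.50 in KO-labelled blood (not called), a called difference of 2.14. Alox15, the lipoxygenase known from organelle breakdown in reticulocytes and also found in eosinophils and macrophages, was the gene that rose, by 2.85 in KO-labelled blood and 3.35 in WT blood. At 0 Gy, 2 of the 15 were called between the genotypes: Tspo2, an erythroid cholesterol-binding protein gene, at 2.17, and Cpox, the coproporphyrinogen oxidase gene of heme synthesis, at 1.15. There 0.209% of all genes were called higher and 0.0824% lower. In the autophagy list, 4 of 17 tested genes rose and 6 fell in KO-labelled blood (median -0.23), and 2 rose and 5 fell in WT blood (median 0.00). The falls of this list in KO-labelled blood are near the 34.6% of all genes that fell there (median -0.26). Gabarapl2, one of the Atg8 proteins that Bnip3l can bind, fell by 1.34 in WT blood and was 0.41 in KO-labelled blood (not called), a called difference of 1.75, and Map1lc3a rose in both, by 0.95 and 0.77.

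The genes most like each member over the 23 samples were ranked by Pearson's r, given as a description since the samples share groups, arrays and slides. Tal1 was most like Tmem40 (0.990), Slamf1 (0.984) and Epor (0.981), and Gata1 was most like Smim3 (0.978) and Tal1 (0.977) over its 22 samples. Nfe2 was most like Chst12 (0.972), and Epor was most like Armcx6 (0.981). Bnip3l was most like Iscu (0.985) and Hagh (0.983), Trim10 like Epb42 (0.989) and Mpp1 (0.988), Trim58 like Gpx1 (0.942) and Cul4a like Ifrd2 (0.983) and St3gal5 (0.981). After the group means were removed, Tal1 and Tmem40 had r = 0.951 and Trim10 and Epb42 had 0.957, but Cul4a and Ifrd2 had 0.552. Klf1 (Lcn6, 0.844) and Tfrc (Zmynd8, 0.875) had no gene as close. Among the members, Gata1, Tal1, Nfe2 and Epor had r of 0.902 to 0.981 with each other, and Bnip3l, Trim10, Trim58 and Cul4a had 0.839 to 0.961. With the group means removed, these ranges were 0.613 to 0.943 and 0.359 to 0.911. Every r of Trim58 rests in part on readings below background, since its probe was well above it on only 11 of 24 arrays.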

How the data were processed

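RNA of mouse whole blood was measured on 24 one-colour Agilent arrays. Per the file headers, each file is the scanner output of Agilent Feature Extraction 12.0.2.2 (12.0.2 in the submitters' processing notes), and the deposited processed signal is an intensity after the software's background subtraction, with probe positions in mm9. The authors' deposited value table is log2 of the same processed signal, offset by 1 value for each array (0 to 1.54), with column medians of 5.75 to 7.18. The reason for the offset is not given in the sources used here.

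From the files, the log2 processed signal was taken minus each array's 75th percentile over 7803 probes well above background on all arrays. Control and outlier-flagged spots were left out, and spots of a probe were averaged. Genes needed a probe well above background on at least 5 arrays, and the brightest probe stood for its gene. Probes were named by accession (28663), current symbol (3300), older symbol (160) or the file's own name (7306), with RefSeq's table. One limma 3.58.1 fit (R 4.3.3) of the 4 groups gave all 5 comparisons, with Benjamini-Hochberg adjustment over 15785 genes. KO-labelled replicates 1 and 4 at 0 Gy were averaged, which gave 23 samples; the tolerance of 1.1 for this was set after the ratios were seen. The number of arrays limits the precision. The members and gene lists were chosen with earlier results of these data known. The genes named as most like a member are the 3 with the highest Pearson's r, limited, after unnamed identifiers were seen among them, to names found in RefSeq. Of each other list, the text names genes among the 4 called genes with the largest absolute change in a comparison; Sh2b3, Jak2, Cul4b, Rbx1 and the globin genes fell outside this and were named after their values were seen. Alternatives covered scaling, background, filter, probe choice, units, array weights, slide or replicate block and arrays left out. Scripts were tested on simulated data. Tables were handled with pandas 2.3.3 and drawn with matplotlib 3.10.9.

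Replicate numbers 1 to 5 recur in all groups. Samples with the same number share a slide and deviated together in part: 20 of 30 such pairs had a correlation over 0.1 (median 0.24, against -0.06 for other pairs). Since not every pair did, the number was kept out of the fit, and the fits with it as a block are given as alternatives.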

Additional observations from a re-analysis of the deposited data

Results flagged for a closer look

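For 7 of the 10 members the response to 7 Gy differed between KO-labelled and WT blood by the test of the difference itself, the interaction term of the limma fit: Bnip3l (1.63), Gata1 (1.42), Epor (1.21), Tal1 (1.15), Cul4a (1.15), Nfe2 (1.001) and Trim58. Each is a positive difference of the responses on the log2 scale, not a higher level. At 7 Gy, Tal1 and Nfe2 were not called higher in KO-labelled than in WT blood. For Trim58 the fitted 1.88 is no measured size, since its probe was below background on all 5 WT arrays at 7 Gy. The value of Cul4a is that of its brightest probe, and the dimmer one was not called (0.58, adjusted p = 0.429). Of these, 4 were also called without the 3 WT arrays at 7 Gy that were high in hepatocyte genes, and 1 (Cul4a) without the 2 KO-labelled arrays at 0 Gy highest in them. Of all 15785 genes, these fits called 118 and 39 higher. In 40 groups of 4 to 9 samples examined for the members, Dixon's test marked no single sample as far from the rest, but it cannot see a split of 2 against 3 samples such as that of WT blood at 7 Gy.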

How the results depend on the processing

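Across 405 recomputed values per comparison, no called change reversed. The number of all genes called also changed by setting. For the difference, 504 were called higher in the report, 39 without the 2 hepatocyte-high KO-labelled arrays at 0 Gy and 2511 with array weights. Between genotypes at 0 Gy, 33 were called higher in the report and 615 with array weights. The count of called members changed as follows. In the response of KO-labelled blood, requiring signal well above background on all arrays left 5 calls of 6 members tested, and leaving out single arrays gave 6 to 9. That filter called 1221 of 6756 genes higher and 2642 lower. For single arrays left out and for an adjusted p under 0.01, calls of all genes are not given here. In the WT response, array weights gave 9, and leaving out single arrays gave 5 to 6. Array weights called 3560 of all 15785 genes higher and 4425 lower there, against 1584 and 2141 in the report. Between genotypes at 0 Gy, array weights gave 6, normexp background correction 1 and the replicate block 1 (Cul4a, adjusted p = 0.0251), and leaving out single arrays gave 0. Among all genes, array weights called 615 higher and 411 lower there, normexp 64 and 22, and the replicate block 179 and 118. In the report these numbers were 33 and 13. Between genotypes at 7 Gy, an adjusted p under 0.01 left 3, leaving out the 3 hepatocyte-high WT arrays left 2, and leaving out single arrays gave 4 to 7. Among all genes, the fit without those 3 arrays called 125 higher and 995 lower, against 723 and 2808 in the report. For the difference of the responses, an adjusted p under 0.01 left 3, and no filter, normexp and leaving out those 3 arrays left 4 each, leaving out the 2 hepatocyte-high KO-labelled arrays at 0 Gy left 1, and leaving out single arrays gave 5 to 9. With no filter, 159 of 29711 genes were higher and 830 lower, and normexp called 331 and 583 of 15785. Without those 3 arrays the calls of all genes were 118 and 845, and without those 2 arrays 39 and 424. In the report they were 504 and 1874. The replicate block gave 7 calls in WT, 9 in KO-labelled blood, 9 for the difference and 6 at 7 Gy, and the slide as a block gave 5, 7, 8 and 5. Both kept every array as its own sample, and both called more of all genes. In KO-labelled blood the replicate block called 3775 higher and 6239 lower and the slide block 3514 and 5984, against 1951 and 5454 in the report. For the difference they called 2180 and 4023 and 1740 and 3386, against 504 and 1874. Uncalled values that changed sign were Bnip3l at 0 Gy (0.0213 with array weights, 0.10 with normexp, 0.12 with quantile normalization, 0.0720 without those 2 arrays), Tfrc at 0 Gy (0.14 with probes averaged, 0.0376 without those 2 arrays), Gata1 in WT (-0.0240), Tfrc at 7 Gy (-0.96) and its difference (-0.43) without the 3 WT arrays, and Tfrc at 7 Gy without single arrays (-0.24 to 0.31). Single arrays ended the call of Epor at 7 Gy (5 of 24 kept it, adjusted p up to 0.122), Trim58 in the difference (8 of 24 kept it, up to 0.107) and in KO-labelled blood (without 0 Gy replicate 3 or 5), Nfe2 in the difference (21 of 24 kept it) and Gata1 at 7 Gy (without WT replicate 1, 0.0501). Other settings that kept the call of the difference numbered 10 of 17 for Nfe2 and 9 of 15 for Trim58. Scaling to the percentile over all probes moved the median of all genes by 0.32 in KO-labelled blood, and the share of calls that were higher was 46.7% there, against 26.3% in the report. The cause of these changes was not tested. Dim signal limits Klf1 and Trim58.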

Other observations

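In the lists of other cells, all 10 B cell markers fell, against 34.6% of all genes lower in KO-labelled blood and 13.6% in WT blood, with a median change of -4.12 in KO-labelled blood and -3.77 in WT blood. Of 10 T cell markers, 1 rose and 5 fell in KO-labelled blood, and 1 rose and 3 fell in WT blood, with the homing receptor gene Ccr7 at -4.93 in KO-labelled blood and -4.38 in WT blood. Of 10 neutrophil markers, 5 fell in KO-labelled blood, while 1 rose and 1 fell in WT blood, and 5 were lower in the difference of the responses, among them the collagenase gene Mmp9 (-2.89). For that difference 11.9% of all genes were lower. Of 10 monocyte and macrophage markers, 2 rose and 4 fell in KO-labelled blood, and 2 rose and 2 fell in WT blood. In all, 5 of 10 mast cell, basophil and eosinophil markers passed the filter, of which 1 rose and 3 fell in KO-labelled blood, and 1 rose and 2 fell in WT blood.

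Of 10 tested proliferation genes, 5 fell in KO-labelled blood and 6 in WT blood, and 5 were higher in KO-labelled than in WT blood at 7 Gy, with the cyclin gene Ccna2 at 2.16. The shares of all genes were 34.6% lower in KO-labelled blood, 13.6% lower in WT blood and 4.58% higher between genotypes at 7 Gy. Of 11 tested hepatocyte genes, 8 rose in KO-labelled blood and 10 rose in WT blood, where the albumin gene Alb was not well above background on any of the 5 arrays at 0 Gy and was so on all 5 at 7 Gy. The shares of all genes that rose were 12.4% in KO-labelled blood and 10% in WT blood.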
